A study of Mus musculus with 16 samples.

Results

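The hnRNP and SR genes encode the main families of RNA-binding splicing regulators, and their transcripts were followed in 2 mouse stromal cell lines and in the exosomes those lines released. Members were taken by name: every gene of the polyA read tables whose symbol is Hnrnp or Srsf followed by its letter or number code, pseudogene names left out. This gave 31 genes (20 hnRNP and 11 SR genes) in 32 of 43629 rows, since Srsf1 has a second gene identifier that held 0 reads in every group. Of the 31, 30 had at least 100 reads summed over the 4 polyA groups, as did 12227 of all genes. The exception was Srsf12, an SR protein gene with 1 read in BFC012 cells and 0 reads in the other 3 groups. The deposited FPKM table (fragments per kilobase of transcript, scaled to library size) has a row for 30 of the 31, the exception being Hnrnph2.

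AFT024 and BFC012 are stromal lines derived from fetal liver of C57BL/6 mice at 14.5 dpc (days post coitum), AFT024 labelled as supportive of HSPCs (haematopoietic stem and progenitor cells) and BFC012 as non-supportive. Exosomes are small membrane vesicles that cells secrete. The series holds 16 samples in 8 groups of 2, of which 4 groups are polyA RNA, namely the exosomes and the cells of AFT024 and of BFC012, with no treatment named. Each capacity is represented by 1 line, exosome RNA of several extractions was pooled and then divided for sequencing, and the tables hold 1 merged value for each group. No spread between replicates and no p-value can therefore be given, and none of the differences has a replicate check. The intervals of shares and ratios below are exact 95% Clopper-Pearson intervals. Those of a quotient of 2 ratios are 95% normal approximations on the log scale. All of them cover counting error only.

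The hnRNP proteins coat nascent transcripts in the nucleus and often silence splice sites, while SR proteins bind exonic enhancers through RNA recognition motifs and recruit the spliceosome through arginine and serine rich domains. Many members regulate their own transcripts by alternative splicing into forms that are degraded by nonsense-mediated decay. hnRNP A2/B1, the product of Hnrnpa2b1, is known in human T cells for binding certain miRNAs and loading them into exosomes. What was measured here is the polyA RNA of these genes, not the proteins.

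The promoters of Hnrnpa2b1 and Hnrnpa1 are shown because these 2 members differed most between the lines in cells, in opposite directions, as described further on. Both sequences are the 250 bases before the RefSeq gene start (build GRCm38.p6), written 5′ to 3′ on the gene's strand, with each CpG dinucleotide (CG, which reads the same on both strands) in capitals.
Hnrnpa2b1, chr6:51469895-51470144, minus strand: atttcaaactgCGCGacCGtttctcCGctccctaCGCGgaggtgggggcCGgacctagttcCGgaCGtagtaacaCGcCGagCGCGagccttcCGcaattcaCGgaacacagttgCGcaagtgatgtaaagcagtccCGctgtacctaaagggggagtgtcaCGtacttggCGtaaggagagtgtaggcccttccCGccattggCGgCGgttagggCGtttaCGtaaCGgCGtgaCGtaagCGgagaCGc
Hnrnpa1, chr15:103240147-103240396, plus strand: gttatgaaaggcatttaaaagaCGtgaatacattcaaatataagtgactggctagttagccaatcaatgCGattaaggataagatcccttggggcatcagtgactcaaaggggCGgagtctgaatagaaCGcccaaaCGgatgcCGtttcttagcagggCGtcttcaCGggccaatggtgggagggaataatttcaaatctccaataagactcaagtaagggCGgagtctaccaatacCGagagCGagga
The Hnrnpa2b1 window holds 29 CpG and has a GC content of 59.6%, and 93.6% of 27018 mouse promoter windows of this length hold fewer CpG. The Hnrnpa1 window holds 11 CpG at 46.0% GC, and 64.0% of windows hold fewer. At least 1 CpG is present in 91.7% of all windows, whose median is 6. Of the 31 members, 29 matched an entry, and their windows held between 6 and 46 CpG with a median of 23.

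Total reads were 9038471 in AFT024 exosomes, 16344350 in BFC012 exosomes, 39385534 in AFT024 cells and 35874383 in BFC012 cells. Reads were compared after division by median-of-ratios size factors, called scaled reads below. The median gene's ratio of exosome to cell scaled reads was 0.823 in AFT024 and 0.913 in BFC012 (log2 -0.28 and -0.13), so exosome ratios are also given relative to the median gene. Of 8 stromal markers, Vim, Fn1 and Col1a1 were abundant in both lines, and Thy1 had 1 read in AFT024 cells and 0 elsewhere. Col1a2 differed most among these markers, with 1717 reads in the AFT024 and 12 in the BFC012 cells. The 7 erythroid markers found summed to between 2 and 6 reads in a group, 6 leukocyte markers to between 9 and 85, mostly Coro1a, and 5 endothelial markers to between 9 and 33. Of 6 hepatoblast markers, Dlk1 alone passed 100 reads, with 29686 in AFT024 cells, 233 in AFT024 exosomes and 9 or fewer in both BFC012 groups.

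The members as a whole made up a smaller share of the exosome libraries than of the cell libraries. They held 0.408% of all reads in AFT024 exosomes (0.404 to 0.412), 0.457% in BFC012 exosomes (0.454 to 0.461), 1.28% in AFT024 cells (1.27 to 1.28) and 1.35% in BFC012 cells (1.35 to 1.36). Both exosome shares lay below both cell shares, in the hnRNP genes and in the SR genes alike. hnRNP genes accounted for 0.318% and 0.349% of reads in AFT024 and BFC012 exosomes and for 0.944% and 0.991% in the cells. SR genes accounted for 0.0893% and 0.108% in the exosomes and for 0.332% and 0.362% in the cells. Per length, the median level of the 30 listed members was 20.6 FPKM in AFT024 exosomes, 34.0 FPKM in BFC012 exosomes, 170.5 FPKM in AFT024 cells and 203.0 FPKM in BFC012 cells.

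Levels per length ranked the members differently in cells and exosomes. In AFT024 cells the highest FPKM belonged to Hnrnpk (1031), Srsf2 (900), Hnrnpf (862) and Hnrnpa1 (778), and in BFC012 cells to Hnrnpa2b1 (940.0), Hnrnpk (936), Hnrnpf (927) and Srsf2 (766). In exosomes the order was led by Hnrnpa1 (238 FPKM), Hnrnpm (154 FPKM) and Hnrnpa3 (130 FPKM) in AFT024, and by Hnrnpm (161 FPKM), Srsf9 (154 FPKM), Hnrnpa1 (153 FPKM) and Hnrnpa3 (151 FPKM) in BFC012. The BFC012 exosome leaders lay within a few percent of each other, and no spread is available to order such neighbours. Hnrnpk, a protein gene of the poly(C)-binding KH-domain type, ranked 1 of 30 in AFT024 cells and 11 in AFT024 exosomes. Srsf9, an SR protein gene, ranked 15 in both cell groups, 6 in AFT024 exosomes and 2 in BFC012 exosomes.

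**Figure D1:**
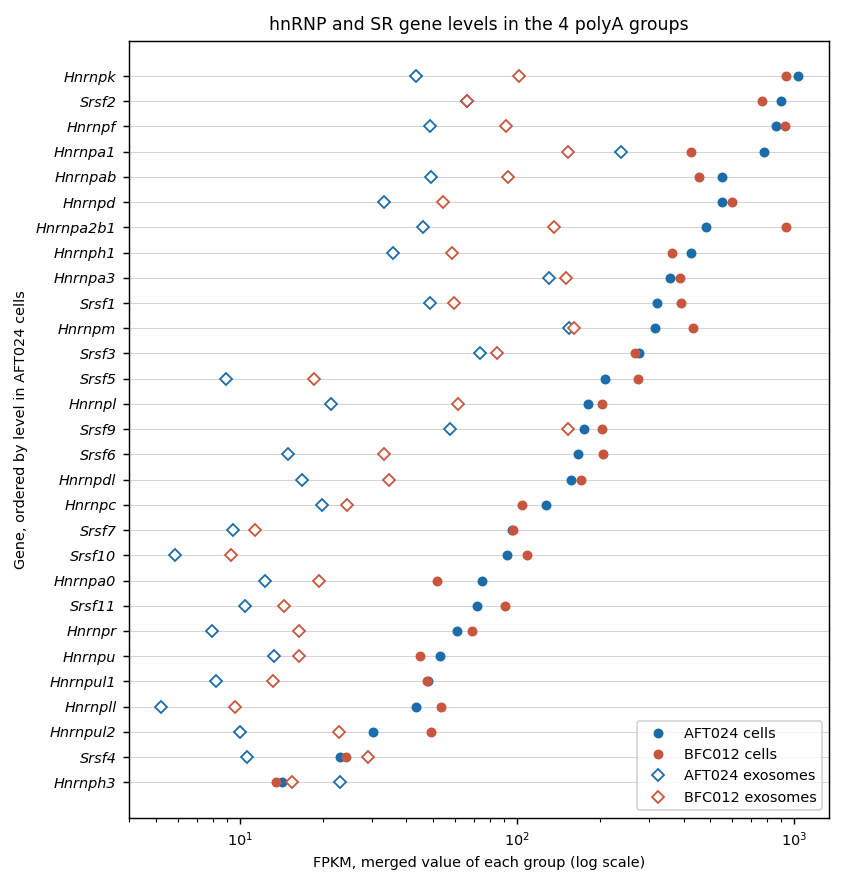
Deposited FPKM (log scale) of the 29 members that pass 100 reads and are listed in the FPKM table, 1 merged value for each group; filled circles are cells, open diamonds exosomes, blue AFT024 and red BFC012. Open symbols lie left of the filled ones in nearly all genes, except at Hnrnph3, where both diamonds lie to the right of the circles, and at Srsf4 in BFC012.

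Exosomes were compared with cells in each line to see which transcripts the vesicles carry in other proportions than the cells. In AFT024, 21 of 30 members were at least 2-fold lower in exosomes than in cells, where 28.9% of all tested genes were, and 1 was at least 2-fold higher, against 20.1% of all genes. In BFC012, 18 of 30 were at least 2-fold lower (27.1% of all genes) and 2 at least 2-fold higher (22.7% of all genes). The median member's ratio was 0.396 in AFT024 and 0.451 in BFC012, beside 0.823 and 0.913 for the median gene. Relative to the median gene, AFT024 had 17 members lower and 1 higher (21.7% and 25.4% of all genes), and BFC012 had 16 and 2 (23.8% and 25.5%). In deposited FPKM, where the median gene itself stood at 0.449 and 0.581, 28 of 29 members were lower in AFT024 (54.8% of all genes) and 26 in BFC012 (43.7%), and 0 were higher in either line (5.96% and 7.59%). The whole counting interval lay below 1 for 26 members in each line (48.3% of all genes in AFT024 and 46.2% in BFC012), and these were the same 26 in both lines (37.9% of all genes). More reads make an interval narrower, and the median member had 27930 reads summed over the 4 groups against 3511 for the median gene tested. Bulk libraries cannot tell fewer vesicles that carry a transcript from fewer copies in each vesicle.

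The hnRNP and SR classes gave similar counts. Of 20 hnRNP genes, 14 were at least 2-fold lower in AFT024 exosomes and 11 in BFC012 exosomes. Of 10 SR genes, 7 were lower in each line. All 18 members lower in BFC012 were also lower in AFT024, which is 100% of the BFC012 list and 85.7% of the AFT024 list. Over all genes, 2352 were lower in both lines, 66.6% of the AFT024 list and 71.3% of the BFC012 list. A larger share of members than of all genes was lower in each line, which by itself raises the overlap, so these shares are not like for like. The members past 2-fold in AFT024 alone were Hnrnpa0, Hnrnpf and Hnrnpul1, whose BFC012 ratios were 0.743, 0.516 and 0.560.

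**Figure D2:**
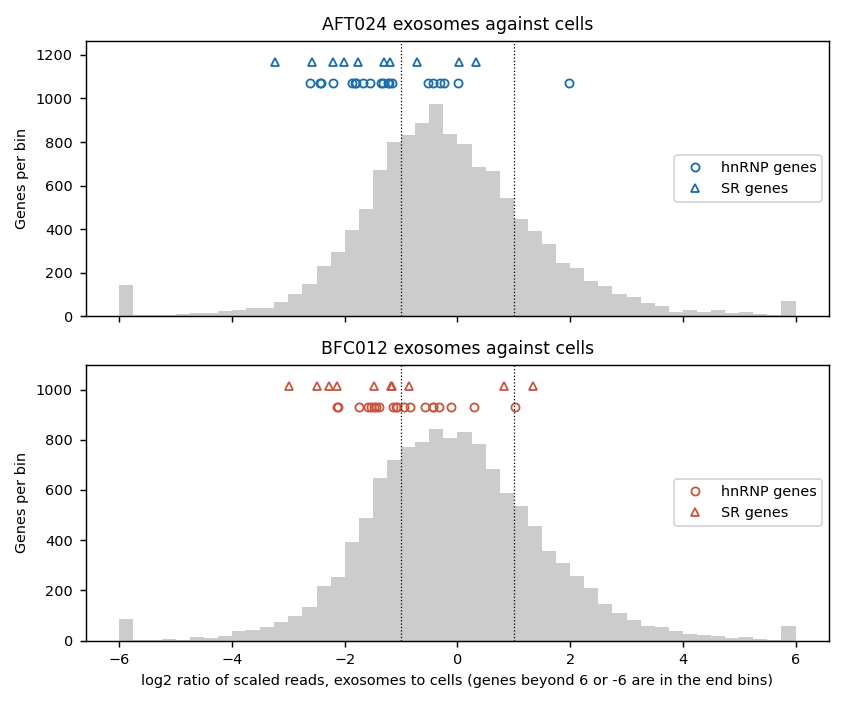
Number of genes in each bin (0.25 wide) of the log2 ratio of scaled reads, exosomes to cells, for all genes with at least 100 reads in AFT024 (upper panel) and BFC012 (lower panel), with genes beyond 6 or -6 in the end bins. Circles are hnRNP genes, triangles SR genes, dotted lines 2-fold; most symbols lie left of the peak of all genes, 21 of 30 left of the lower line in AFT024 and 18 in BFC012.

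Within the hnRNP A/B group, which binds exonic and intronic silencers, the members did not behave alike. Hnrnpa2b1 (ENSMUSG00000004980, mm10 chr6:51460434-51469894) had 2181 reads in AFT024 exosomes, 7659 in BFC012 exosomes, 46811 in AFT024 cells and 80112 in BFC012 cells. Exosomes of AFT024 held 0.272 (0.260 to 0.284) of the cell level and those of BFC012 0.297 (0.290 to 0.304). The transcript of this gene, whose protein is known as a loader of exosomal miRNA, was thus low relative to the cells. In both lines its ratio lay well below that of the median gene. Its level per length still ranked 5 of 30 members for BFC012 vesicles (136 FPKM) and 10 for those of AFT024 (46.0 FPKM). Hnrnpa1, the closest relative by name and a repressor that promotes exon skipping, had 7093, 6060, 51018 and 25547 reads in the same order. The Hnrnpa1 ratios of 0.811 (0.791 to 0.832) for AFT024 and 0.737 (0.717 to 0.758) for BFC012 were closer to those of the median gene. Hnrnpa3, another A/B protein gene, had 4576 reads in AFT024 exosomes, 10299 in BFC012 exosomes, 26506 in AFT024 cells and 26106 in BFC012 cells. Its ratios of 1.01 (0.976 to 1.04) and 1.23 (1.20 to 1.25) were among the 4 highest in each line. They fell below 1 when reads were scaled to library totals (0.752 and 0.866) and in FPKM relative to the median gene (0.821 and 0.670), so no direction is given for Hnrnpa3. Hnrnpa0, which binds AU-rich elements, had 652, 1364, 8940 and 5706 reads and ratios of 0.425 in AFT024 and 0.743 in BFC012.

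The related Hnrnpab, Hnrnpd and Hnrnpdl genes encode A/B and D proteins that bind AU-rich RNA. All were at least 2-fold lower in exosomes, with ratios between 0.216 (Hnrnpd) and 0.288 (Hnrnpdl) in AFT024 and between 0.228 (Hnrnpd) and 0.455 (Hnrnpab) in BFC012. Hnrnpd, whose product AUF1 promotes decay of AU-rich mRNAs, had 479 reads in AFT024 exosomes and 948 in BFC012 exosomes, against 12918 and 12928 in the cells.

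The F/H genes encode proteins that bind runs of guanines, and in AFT024 they held both ends of the hnRNP range. Hnrnph1 had 666 reads in AFT024 exosomes, 1646 in BFC012 exosomes, 23933 in AFT024 cells and 22150 in BFC012 cells. Its ratio was 0.162 (0.150 to 0.175) in AFT024, the lowest hnRNP value there, and 0.231 (0.220 to 0.243) in BFC012. Hnrnph3, a shorter F/H relative, had 761, 667, 1132 and 1020 reads in the same order. Its ratio of 3.92 (3.57 to 4.30) was the highest of the 30 members in AFT024, and that of 2.03 (1.84 to 2.24) in BFC012 was exceeded there by Srsf4 alone. Hnrnph3 was also the only member above 1 in both lines when reads were scaled to library totals (2.93 and 1.44) and in deposited FPKM, where it stood at 23.1 and 15.4 FPKM in AFT024 and BFC012 exosomes and at 14.2 and 13.5 FPKM in the cells. In the cells it had the lowest FPKM of the members that passed 100 reads.

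Hnrnph2, an X-linked close relative of Hnrnph1, was the most thinly covered tested member, with 62, 116, 844 and 1039 reads. Its ratios of 0.429 (0.326 to 0.555) and 0.347 (0.284 to 0.421) have the widest intervals relative to the value. Hnrnpf had ratios of 0.390 and 0.516 in scaled reads.

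Among the remaining hnRNP genes, Hnrnpk and Hnrnpl had the lowest ratios in AFT024, and Hnrnpk the lowest in BFC012. Hnrnpk had 1324 reads in AFT024 exosomes, 3815 in BFC012 exosomes, 41867 in AFT024 cells and 35454 in BFC012 cells, giving ratios of 0.184 (0.175 to 0.195) and 0.334 (0.323 to 0.346). Hnrnpl, whose protein binds CA repeats, had 479, 1892, 14985 and 15397 reads and ratios of 0.186 (0.170 to 0.204) and 0.382 (0.364 to 0.401). Both were thus lower in the exosomes of each line, and further below 1 in AFT024. Hnrnpll, a regulator of CD45 splicing in lymphocytes, had ratios of 0.315 and 0.359. Hnrnpr had ratios of 0.342 and 0.478. Hnrnpc, which binds uridine tracts, had 1038, 1717, 15087 and 11410 reads and ratios of 0.401 and 0.468.

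Genes of the large hnRNP U group and Hnrnpm stayed closer to the median gene. Hnrnpu, encoding the nuclear scaffold protein SAF-A, had 995 reads in AFT024 exosomes, 1547 in BFC012 exosomes, 7873 in AFT024 cells and 6021 in BFC012 cells. Its ratios were 0.737 (0.690 to 0.788) and 0.798 (0.755 to 0.844). Hnrnpul2 had 1166, 3560, 8041 and 11946 reads and ratios of 0.846 (0.795 to 0.900) and 0.926 (0.892 to 0.961), so neither line reached 2-fold. Hnrnpul1 was lower, at 0.450 and 0.560. Hnrnpm had ratios of 0.695 and 0.671.

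SR genes also covered a wide range. Srsf5 had 219 reads in AFT024 exosomes, 584 in BFC012 exosomes, 12002 in AFT024 cells and 14335 in BFC012 cells. Its ratios of 0.106 (0.0927 to 0.122) and 0.127 (0.116 to 0.138) were the lowest of all members in both lines. Srsf10, an SR-like protein gene whose product represses splicing when dephosphorylated, had 343, 743, 12002 and 13005 reads and ratios of 0.167 (0.149 to 0.186) and 0.178 (0.165 to 0.191). Srsf2, which encodes the nuclear speckle protein SC35, had 783, 1277, 21148 and 19377 reads and ratios of 0.216 (0.201 to 0.232) and 0.205 (0.193 to 0.217). Srsf7 had 418, 666, 9791 and 9115 reads and ratios of 0.249 (0.225 to 0.275) and 0.227 (0.210 to 0.246). These 4 SR genes were therefore at most 0.249 of their cell level in either exosome group.

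Srsf4 and Srsf9 stood at the other end. Srsf4 had 674 reads in AFT024 exosomes, 2449 in BFC012 exosomes, 3136 in AFT024 cells and 3004 in BFC012 cells. Its ratio was 2.53 (2.40 to 2.67) in BFC012, where Srsf4 was the highest member, and 1.25 (1.15 to 1.36) in AFT024. Scaled to library totals, the BFC012 ratio was 1.79 and that of AFT024 was 0.937, so the direction in AFT024 depends on the scaling. Srsf9 had 637, 2140, 3655 and 3762 reads. Its ratio was 1.77 (1.68 to 1.86) in BFC012 and 1.02 (0.933 to 1.11) in AFT024, with an interval that holds 1. Scaled to library totals these were 1.25 and 0.759. The other SR genes lay between: Srsf1, the prototype SR protein gene, at 0.437 and 0.440, Srsf3, the smallest SR protein gene, at 0.610 and 0.549, Srsf6 at 0.293 and 0.447, and Srsf11 at 0.406 and 0.360.

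**Figure D3:**
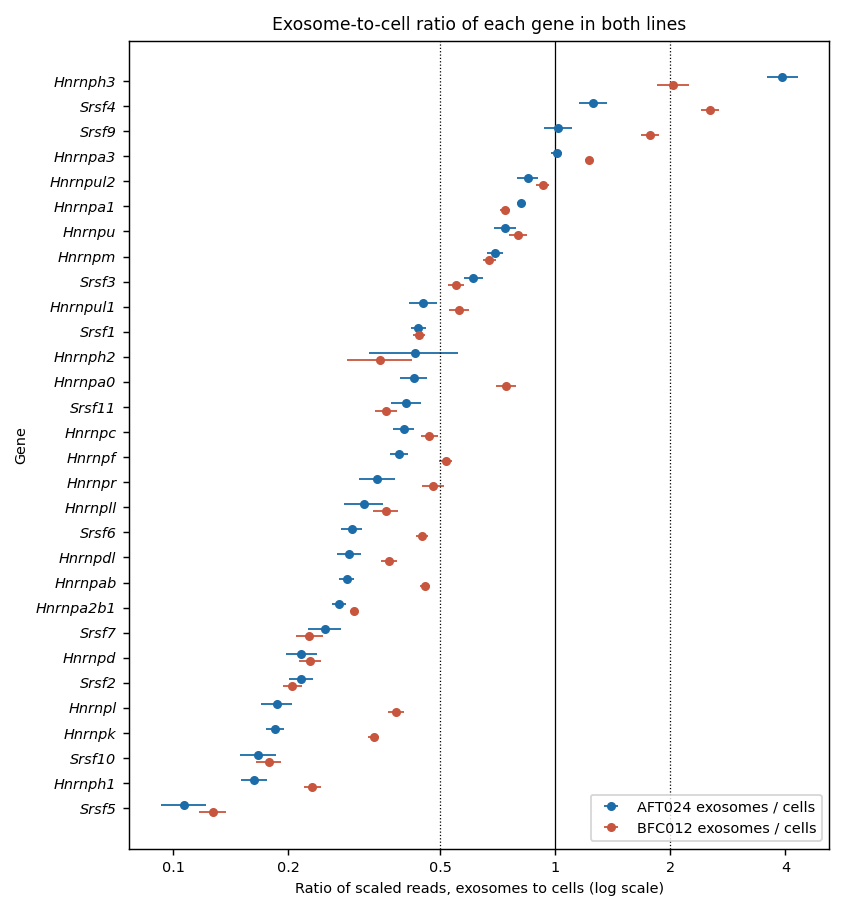
Ratio of scaled reads, exosomes to cells (log scale), of the 30 tested members in AFT024 (blue) and BFC012 (red), ordered by the AFT024 value; bars are exact 95% intervals for counting error, the solid line is 1 and dotted lines are 2-fold. Srsf5 is lowest in both lines (0.106 and 0.127), and Hnrnph3 and Srsf4 are the only genes with both intervals above 1.

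The order of the members was much alike in both lines. Across the 30 members the log2 exosome-to-cell ratios of AFT024 and BFC012, which share no library, had a Spearman rho of 0.903 and a Pearson r of 0.917, against 0.803 and 0.814 over 11936 genes. The median member had 27930 reads against 3511 for the median gene tested, so these coefficients are not like for like. Members are not independent replicates, and all share the same 4 merged values. The ratio varied little with the length of the longest coding transcript among members (rho 0.117 in AFT024 and 0.058 in BFC012). Over all genes rho was 0.167 in AFT024 (11265 genes) and 0.211 in BFC012 (11269 genes), and whether the members differ from this was not tested. Members with higher FPKM in cells had somewhat lower ratios (rho -0.42 in AFT024 and -0.43 in BFC012 over 29 members), as did all genes (rho -0.29 and -0.28), though the cell value enters both measures.

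The distance from the cells was compared between the lines. The AFT024 exosome-to-cell ratio was below that of BFC012, with a 95% counting interval of the quotient wholly below 1, in 17 of 30 members (37.7% of 11936 genes), and above it in 4 (25.8%), while 9 intervals held 1. Intervals are narrower with more reads, and the median member had 27930 against 3511 for the median gene tested, so these shares are not like for like. The median quotient was 0.867 over members and 0.925 over all these genes. At 2-fold, 2 members had a lower quotient and 0 a higher one (10.9% and 9.12% of all genes). They were Hnrnpl and Srsf4, with quotients of 0.488 (0.441 to 0.541) and 0.495 (0.448 to 0.546). Hnrnpk followed at 0.552 (0.518 to 0.588), Hnrnpa0 at 0.573 (0.519 to 0.632) and Srsf9 at 0.575 (0.521 to 0.635). In the other direction Hnrnph3 had a quotient of 1.93 (1.69 to 2.21), and Hnrnpa1, Srsf3 and Srsf11 lay between 1.10 and 1.13. Hnrnpa2b1, at 0.915 (0.871 to 0.961), differed little between the lines.

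AFT024 and BFC012 cells were compared to see how supportive and non-supportive stroma differ. In scaled reads 0 of 30 members differed by 2-fold or more in either direction, where 9.97% of all tested genes were higher and 7.80% lower in AFT024. Among genes with at least 1000 reads, a filter that all 30 members pass, these shares were 6.58% and 4.39%. With 1 merged value in each group no test was run for the count of members. Of the 30 members, 27 lay within 1.5-fold, as did 67.8% of all genes. The 3 beyond 1.5-fold were Hnrnpa1, Hnrnpa2b1 and Hnrnpul2, named here after their values were seen as well as by rank. Hnrnpa2b1 was lower in AFT024 cells, with a ratio of 0.544 (0.538 to 0.550) between its 46811 and 80112 reads. Hnrnpa1 was higher, with a ratio of 1.86 (1.83 to 1.89) between 51018 and 25547 reads. Per length, Hnrnpa1 was the A/B gene of highest level in AFT024 cells (778 FPKM, Hnrnpa2b1 484 FPKM), and Hnrnpa2b1 was highest in BFC012 cells (940.0 FPKM, Hnrnpa1 426 FPKM). Hnrnpul2 had a ratio of 0.627 (0.609 to 0.645).

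Smaller differences completed the ends of this comparison. Hnrnpa0 stood at 1.46 (1.41 to 1.51), Hnrnpc at 1.23 (1.20 to 1.26) and Hnrnpu at 1.22 (1.18 to 1.26) on the AFT024 side. On the BFC012 side were Hnrnph2 at 0.756 (0.690 to 0.829) and Srsf5 at 0.779 (0.761 to 0.799). The median member had a ratio of 0.961, beside 0.996 for the median gene. Counts of members past 2-fold were also 0 relative to the median gene (10.1% of all genes higher, 7.71% lower), in deposited FPKM (7.28% and 5.15%) and in FPKM relative to the median gene (7.5% and 5%). SR genes all lay between 0.779 and 1.05, which is a narrower span than that of the hnRNP genes.

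Exosomes of AFT024 and BFC012 were compared in the same way. Here 1 member was at least 2-fold higher in AFT024 (14.1% of all genes) and 3 at least 2-fold lower (14.9% of all genes), and 19 of 30 lay within 1.5-fold (48.5% of all genes). Hnrnpa1 was higher, at 2.05 (1.98 to 2.12). Hnrnpl at 0.442 (0.399 to 0.489), Srsf4 at 0.481 (0.441 to 0.524) and Hnrnpa2b1 at 0.498 (0.474 to 0.522) were lower. Hnrnph3 was just inside the threshold at 1.99 (1.79 to 2.22) and Srsf9 at 0.520 (0.475 to 0.569). The intervals of Srsf4, Srsf9, Hnrnpa2b1, Hnrnpa1 and Hnrnph3 hold 2-fold, and that of Hnrnpl lies wholly past it. Srsf3 at 1.17 (1.09 to 1.25) and Hnrnpu at 1.12 (1.04 to 1.22) were the next highest. Relative to the median gene, 2 members were higher and 1 lower (15.6% and 13.2% of all genes). In FPKM relative to the median gene 0 were higher and 4 lower (9.62% and 8.02% of all genes), and in FPKM as deposited 0 and 7 (6.18% and 15.8%), so the split of these few calls depends on the quantity.

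Hnrnpa1 and Hnrnpa2b1 thus kept their opposite differences between the lines in both compartments, which come from different libraries. Srsf4, Srsf9 and Hnrnpl were close to 1 in the cells (0.972, 0.904 and 0.906) and low in AFT024 exosomes relative to BFC012 exosomes. Hnrnpa0, Hnrnpab and Hnrnpk had intervals above 1 in the cells and below 1 in the exosomes, as did 8.33% of all genes, and 0 members had the opposite pattern, against 5.12% of all genes. Over the 30 members the log2 ratio between the lines in cells and in exosomes had a rho of 0.564 and an r of 0.576, against 0.558 and 0.731 over 11936 genes.

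**Figure D4:**
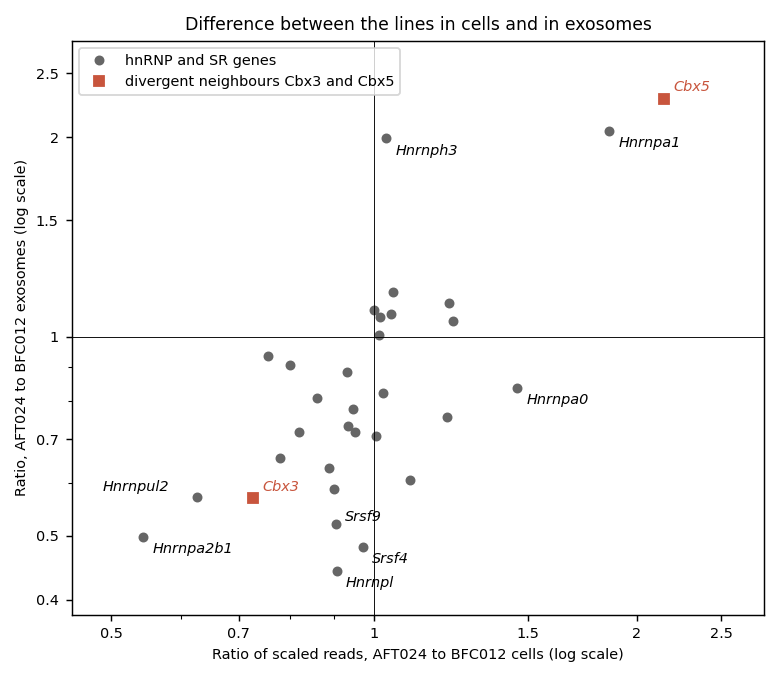
Ratio of scaled reads, AFT024 to BFC012, in cells (horizontal) and in exosomes (vertical), both on log scales; grey circles are the 30 tested members and red squares the divergent neighbours Cbx3 and Cbx5. Hnrnpa2b1 lies at 0.544 and 0.498 and Hnrnpa1 at 1.86 and 2.05, each on the same side of 1 as its neighbour, while Srsf4 and Hnrnpl lie near 1 in cells and low in exosomes. Divergent neighbours of the other members are not drawn, and not all of them lie near their partner.

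Both genes whose promoters are printed above start back to back with a gene of the heterochromatin protein HP1 family. The start of Cbx3 lies 466 bases from that of Hnrnpa2b1, and the start of Cbx5 lies 616 bases from that of Hnrnpa1. Cbx3 had 1485 reads in AFT024 exosomes, 4552 in BFC012 exosomes, 10903 in AFT024 cells and 13969 in BFC012 cells. Like Hnrnpa2b1, it was lower in AFT024, at 0.727 in cells and 0.570 in exosomes. Cbx5 had 5595, 4270, 38338 and 16605 reads and, like Hnrnpa1, was higher in AFT024, at 2.15 in cells and 2.29 in exosomes. The exosome-to-cell ratios of Cbx3, 0.795 in AFT024 and 1.01 in BFC012, were above those of Hnrnpa2b1, while those of Cbx5, 0.851 and 0.799, lay near those of Hnrnpa1. In all, 10 members have a divergent protein-coding neighbour whose start lies within 1000 bases, and the other pairs were not all alike. Hnrnpul2 stood at 0.627 in AFT024 to BFC012 cells and 0.572 in exosomes, its neighbour Ttc9c at 0.913 and 0.973. In exosomes Hnrnph2 stood at 0.934 and its neighbour Gla at 2.78, on 43 and 27 reads. Hnrnpdl, at 0.934 in cells and 0.732 in exosomes, lay on the same side of 1 as its neighbour Enoph1, at 0.811 and 0.617. The part of the shared promoters in these differences was not tested.

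The library kit named in the labels does not mark strand, so reads of overlapping genes on opposite strands cannot be told apart. Of the members, 14 share exon bases with another annotated gene, and 7 share them with a gene that had more than 100 reads in sum. Hnrnph3 shares 115 of 3151 exon bases with Rufy2, which had 164, 420, 1072 and 1031 reads in the order used above. The start of Pbld2 lies 98 bases from that of Hnrnph3, on the other strand, and Pbld2 had 1068 reads in AFT024 exosomes, 109 in BFC012 exosomes, 113 in AFT024 cells and 60 in BFC012 cells. Pbld2 was thus high in the same exosome group in which Hnrnph3 had its highest ratio, and its part in the Hnrnph3 values was not tested. Srsf4 shares 1532 of 3561 exon bases with the noncoding gene Gm12992, which had at most 113 reads in any group. Hnrnpm shares 3028 of 7956 exon bases with March2 on the same strand, and March2 had 763, 1022, 1044 and 953 reads, so the counts of Hnrnpm depend on how such reads were assigned.

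Read counts and FPKM gave different sizes for several members. Relative to the median gene on each scale, the exosome ratios of 3 members differed by 2-fold or more between the scales. Hnrnpf had 0.474 in reads and 0.128 in FPKM for AFT024, and 0.565 and 0.172 for BFC012. Hnrnpk had 0.224 and 0.0958 for AFT024. Hnrnpa3 had 1.34 and 0.670 for BFC012, which also turned its direction. Hnrnpa2b1 was low on both scales, at 0.330 and 0.216 for AFT024 and at 0.325 and 0.250 for BFC012. Over the 29 members listed in both, 20 were at least 2-fold lower in FPKM for AFT024 (21.2% of all genes) and 17 for BFC012 (22.2% of all genes).

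The genes whose pattern over the 4 groups was most like that of Hnrnpa2b1 were not other members. Likeness was measured as the distance between log2 scaled reads over 4 groups, each gene centred on its own mean, among 9220 genes with at least 1000 reads. The nearest members were Hnrnpl at a distance of 0.542, Hnrnpll at 0.612 and Srsf6 at 0.643, which ranked 107, 167 and 200 among all genes. The nearest genes of all were Mtap at 0.159, Mat2b at 0.192, Tgfb2 at 0.225, Slc25a13 at 0.272 and Psip1 at 0.277. Mtap, a methionine salvage enzyme gene, had ratios of 0.315 and 0.305 between exosomes and cells and of 0.497 and 0.513 between the lines. Psip1, which encodes the chromatin reader LEDGF, had 307, 1141, 8125 and 14086 reads. A distance over 4 values is a description of these libraries.

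Other splicing genes were counted by lists that follow their roles, to be read beside the 28.9% and 27.1% of all genes at least 2-fold lower, and the 20.1% and 22.7% at least 2-fold higher, in AFT024 and BFC012 exosomes. Of 22 core snRNP genes, 14 were at least 2-fold lower in exosomes in each line and 0 higher, with median ratios of 0.409 in AFT024 and 0.382 in BFC012. Their lowest members were Snrpa, of the U1 snRNP, at 0.163 in AFT024 and Prpf8, the U5 scaffold, at 0.179 in BFC012. The highest were Snrnp200, the U5 helicase, at 1.53 in AFT024 and Prpf19 at 1.63 in BFC012. Of 14 branch site and 3′ splice site factors, 12 were lower in AFT024 exosomes and 7 in those of BFC012. None was higher (0 genes), and the medians were 0.371 and 0.489. Sf3b4 was lowest in both lines at 0.162 and 0.190, and the helicase gene Ddx46 highest at 1.23 and 1.19. In the cells, 0 genes of either list differed by 2-fold between the lines.

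Regulators of SR proteins were more mixed. Of 16 tested SR regulators and SR-related genes, 8 were lower and 1 higher in AFT024 exosomes, and 6 lower and 2 higher in BFC012 exosomes, with medians of 0.598 and 0.822. The BFC012 counts are not far from the shares of all genes. Clk2, a kinase that phosphorylates SR proteins, was lowest at 0.179 and 0.228. Son, a large nuclear speckle scaffold, was highest: it had 15626 reads in AFT024 exosomes, 35056 in BFC012 exosomes, 22081 in AFT024 cells and 23822 in BFC012 cells, with ratios of 4.13 and 4.57. The direction of Son was thus opposite to that of most SR genes in both lines. Of 30 other RNA-binding splicing regulators, AFT024 exosomes had 17 lower and 5 higher, and BFC012 exosomes 15 and 5, with medians of 0.430 and 0.505. Rbfox2 was highest in AFT024 at 3.76 and Pcbp4 in BFC012 at 5.85. In the cells Pcbp2, a poly(C)-binding relative of Hnrnpk, was the only gene of these lists past 2-fold, at 2.30.

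Of 14 genes of nonsense-mediated decay, 6 were lower and 2 higher in AFT024 exosomes, and 5 lower and 1 higher in BFC012 exosomes, which is nearer to the shares of all genes than the members' counts. Their median ratios of 0.702 and 0.699 were closer to the median gene than those of the members. In scaled reads the endonuclease gene Smg6 was highest at 2.48 and 4.22, and Magoh, of the exon junction complex, lowest at 0.208 and 0.127. In deposited FPKM, Smg6 instead stood at 0 in both exosome groups and at 8.94 and 9.77 in AFT024 and BFC012 cells. No direction is therefore given for Smg6. No gene of this list passed 2-fold between the cells.

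The same lists were counted between the exosomes of the lines, where AFT024 was past 2-fold upward in 14.1% and downward in 14.9% of all genes. Core snRNP genes had 2 higher and 2 lower, from Prpf19 at 0.316 to Snrpe, of the Sm ring, at 2.54. Branch site and 3′ splice site factors had 0 higher and 1 lower, from Sf3b2 at 0.454 to U2af1, a subunit of the factor that reads the 3′ splice site, at 1.81. SR regulators had 0 higher and 2 lower, from Tnpo3, the nuclear importer of SR proteins, at 0.294 to the kinase gene Clk4 at 1.37. Other RNA-binding regulators had 2 higher and 4 lower, from Pcbp3 at 0.402 to Pcbp2 at 2.59. Decay genes had 0 higher and 1 lower, from Smg9 at 0.496 to the kinase gene Smg1 at 1.57.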

How the data were processed

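RNA was extracted with Trizol, selected with oligo-dT and made into libraries with a TruSeq RNA V2 kit, per the labels. Bowtie, TopHat, Cufflinks and mm10 are named in the submitters' processing notes. Which tool counted reads, and on which annotation, is not given in the sources used here. Deposited polyA tables hold FPKM computed by the authors and, in tables for pairs of groups, other values that the authors made by dividing reads by a size factor. Dividing by each column's smallest step gave whole counts: 100% of deposited values lay within 0.01 reads of a whole number, and tables that hold the same group gave equal counts. Of the value columns, 0 were left unused; the small RNA tables were not used here.

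Ratios used median-of-ratios size factors (0.368 to 2.15), taken over genes with reads in all 4 groups. Genes with at least 100 reads summed over 4 groups were tested, with Clopper-Pearson intervals for ratios (scipy 1.17.1, Python 3.11.15). Quotients of ratios had normal intervals on the log scale. Intervals assume independent reads, and the libraries have no molecular identifiers. The ratio step was tested on simulated counts in which few genes were changed, as many up as down. Many more genes passed 2-fold between exosomes and cells, so the simulation does not cover how scaling acts in those comparisons. Because the deposited values are 1 merged value a group, 2-fold on the point value was counted and no test was run. FPKM ratios are of log2(FPKM + 1). Promoters came from RefSeq, overlaps and neighbours from GENCODE on GRCm38.

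All members are accounted for. Values are given for Hnrnpa2b1, for the 4 highest and 4 lowest members of each comparison, for the ends of each other list in the comparisons that include exosomes and for the 3 members and 5 genes nearest Hnrnpa2b1. Of these, 1 result is not reported here. The members and lists were chosen with earlier results of these data known.

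Alternatives were scaling to total reads, FPKM with and without centring on the median gene, pseudocounts of 1 and 0.1, no filter or 1000 reads, and 1.5-fold and 3-fold; scaled reads relative to the median gene were added after seeing the data.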

Additional observations from a re-analysis of the deposited data

Results flagged for a closer look

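In 3 members the difference between the lines ran in opposite directions in cells and in exosomes, each with its counting interval on that side of 1. All were higher in AFT024 cells and lower in AFT024 exosomes, as were 8.33% of all tested genes, against 3 of 30 members (10%), which is near that share. The median member also has more reads than the median gene, and more reads make such an interval narrower. The difference was not tested, since each group has 1 merged value. Hnrnpk, a poly(C)-binding protein gene, was higher in AFT024 cells at 1.10 and lower in AFT024 exosomes at 0.607, so that the exosome value was 0.552 of the cell value. Hnrnpa0, whose product binds AU-rich elements, stood at 1.46 in cells and 0.835 in exosomes, a quotient of 0.573. Hnrnpab, an RNA transport and transcription factor gene, stood at 1.21 and 0.757, a quotient of 0.624. The opposite pattern, lower in cells and higher in exosomes, was found in 0 members and in 5.12% of all genes. Scaling to library totals left the directions as they were: Hnrnpk at 1.08 and 0.628, Hnrnpa0 at 1.43 and 0.864, and Hnrnpab at 1.19 and 0.783.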

How the results depend on the processing

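No paired analysis was possible because the tables hold 1 merged value for each group and carry no replicate number, and no replicate could be left out. Of 72 alternative counts of members, 51 stayed within 1.5 times the reported count and 21 moved; for the medians and Hnrnpa2b1, 21 of 48 moved by less than their criterion, 27 moved, and no direction reversed. Scaled to total reads, 0 members were higher in BFC012 exosomes than in cells (14.6% of all genes). On that scale 2 were higher in AFT024 than in BFC012 exosomes (15.0%). In FPKM as deposited, 0 members were higher in the exosomes of AFT024 or of BFC012 than in cells (5.96% and 7.59% of all genes). Between the exosomes 0 were higher and 7 lower in AFT024 (6.18% and 15.8%). In FPKM relative to the median gene, 1 was higher in BFC012 exosomes than cells (18.9% of all genes). Between the exosomes 0 were higher in AFT024 (9.62%), or 2 with a pseudocount of 0.1 (15.5%). At 3-fold, 13 members were lower in AFT024 exosomes (15.5% of all genes), and 7 lower and 0 higher in BFC012 exosomes (14.3% and 13.4%). At that size 0 were higher and 0 lower between the exosomes (7.72% and 7.03%). At 1.5-fold, 1 was higher and 2 lower between the cells (17.5% and 14.7% of all genes). Between the exosomes 2 were higher and 9 of 30 lower (23.9% and 27.6%). With no filter, 1 was lower in AFT024 cells (Srsf12, 1 read), as were 18.9% of all genes. Relative to the median gene, 2 were higher and 1 lower between the exosomes (15.6% and 13.2% of all genes). The cause of these shifts was not tested. Depth is lowest in AFT024 exosomes, where Hnrnph2 rests on 62 reads.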

Other observations

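The name Hnrnpa1l2-ps, a pseudogene left out of the members, had 0 and 1 reads in the exosomes of AFT024 and BFC012 and 4 and 1 reads in the cells. The FPKM table lists it at 4.85, 3.33, 20.8 and 10.7 FPKM in the same order. So few reads could not give such FPKM values, so reads and FPKM conflict for this name and no direction is given. Srsf12 is listed at 0 FPKM in 3 groups and at 0.00819 FPKM in BFC012 cells.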
